A study of Rattus norvegicus with 6 samples.

Results

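Proteins bound for secretion, such as thyroglobulin in the thyroid follicular cell, enter the endoplasmic reticulum (ER) while they are being made. The signal recognition particle (SRP) brings the ribosome to its receptor on the ER membrane, the Sec61 channel with the translocon-associated proteins takes the chain across, the signal peptidase cuts off the signal peptide and the oligosaccharyltransferase adds N-linked sugar chains. Folded cargo then leaves in vesicles with a COPII coat, COPI-coated vesicles carry escaped ER proteins and membrane back from the Golgi, and cargo and KDEL receptors sort what travels either way. The genes described here are 50 components of this route, listed by gene symbol and not by a measured value, and 45 of them had a row among the 15388 genes of the count tables. Srp54, Srprb, Sec61g, Stt3a and Stt3b were not analysed here.

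Thyroid tissue came from adult Sprague-Dawley rats that were non-pregnant (NP, 3 samples) or in late pregnancy (LP, day 18 counted from the vaginal plug, 3 samples), with no other treatment, and polyA RNA was sequenced. The comparison of LP with NP asks how pregnancy alters gene expression in the maternal thyroid. Between 2752144 and 3449857 reads were counted per sample, so that 3 reads, the floor of detection for counting error alone, equalled between 0.87 and 1.09 CPM (reads per 1000000 reads counted). Thyroglobulin (Tg) held between 22.9% and 24.5% of the reads, and all 10 follicular markers were measured in all samples. Within each group replicates 2 and 3 were alike to within sampling noise (chi-square per degree of freedom 1.02 for NP and 0.995 for LP, p = 0.111 and 0.667), whereas replicate 1 differed from both (3.7 to 4.11). Replicates 2 and 3 were therefore counted as 1 sample, with n = 2 per group in every mean ± SD and in the edgeR test, and the p-values measure the spread between these samples, which may be technical. Leaving out replicate 1 of a group thus left 1 sample in that group. No p-value is given for those fits, and a call lost in them does not show that it depended on replicate 1.

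Of the 45 genes, 26 fell and 2 rose in LP at an adjusted p-value below 0.05, where 8.36% of all 12326 genes tested fell and 12.3% rose. Among genes with a mean of at least 50 reads, as all 45 had, 12% fell and 14.1% rose. The size of a change is given as the log2 ratio of LP to NP from the edgeR fit, with its standard error (SE). The median log2 ratio of the 45 genes was -0.31, against -0.011 over all genes tested, and 42 of the 45 values lay below 0. The changes were modest: the values ran from -0.70 to 0.50, and no gene reached the 2-fold cutoff of the study, which 5.43% of all genes passed together with the adjusted p-value. In 36 of the 45 genes every LP sample lay below every NP sample and in 1 gene every LP sample lay above, patterns shown by 18.9% and 20.6% of all genes. The LP libraries were the larger ones, so samples are called higher, lower or overlapping by TMM-scaled CPM and not by the reads printed. All 28 called genes changed in the same direction in replicate 1 and in replicates 2 and 3. These are the samples that made the calls, so this agreement is no separate support. In bulk tissue, fewer cells of a type and less RNA per cell cannot be told apart. With a block for the replicate number, 35 fell and 2 rose, where 13.5% of all genes fell and 16% rose. The labels give no pairing by that number. The block fit also had fewer degrees of freedom and a far smaller coefficient of biological variation (0.0163 against 0.0781). Its p-values, here and below, are therefore no firmer support. With DESeq2 in place of edgeR, 16 fell and 0 rose (24 and 1 at an unadjusted p-value below 0.05). Counts over all genes with DESeq2 are given in the last section.

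**Figure D1:**
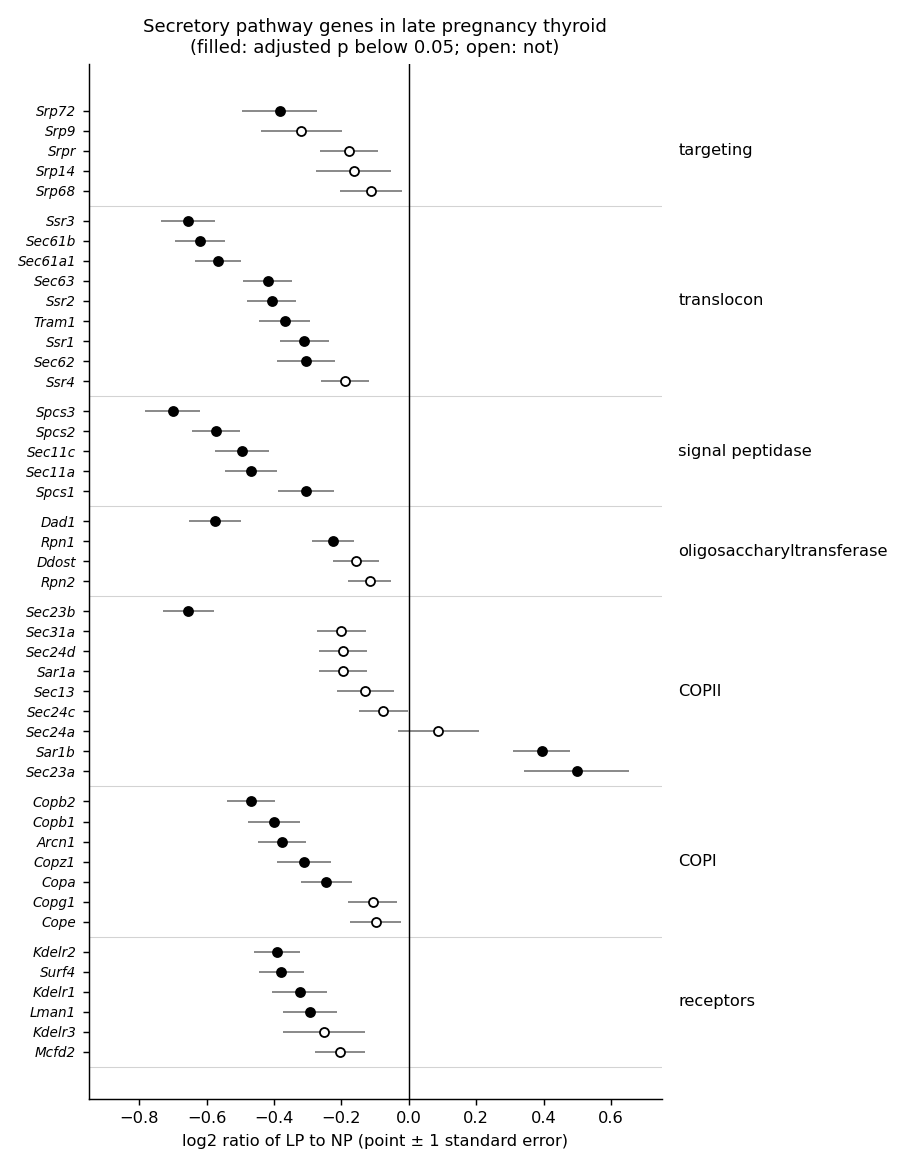
Log2 ratio of LP to NP for the 45 secretory pathway genes, grouped by step, with bars of 1 SE (horizontal axis, log2 units; filled points, adjusted p below 0.05 by edgeR). The 5 signal peptidase genes and 8 of the 9 translocon genes are filled and left of 0, while Sec23a and Sar1b of the COPII coat are filled and right of 0.

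As raw shares, the 45 genes held 0.869%, 0.838% and 0.846% of the reads in the NP replicates against 0.668%, 0.663% and 0.655% in LP. The groups did not overlap for the whole set, nor for any of the 7 steps. Raw shares are scaled by library totals, under which the median log2 ratio over all genes tested was -0.078, against -0.011 with TMM. How often sums over other genes separate in this way was not counted. A lower sum does not mean that each gene fell: of the 9 COPII genes 1 fell and 2 rose. The translocon genes held between 0.171% and 0.174% of the reads in NP and between 0.121% and 0.123% in LP, and the signal peptidase genes between 0.0825% and 0.0876% in NP and between 0.0551% and 0.0584% in LP.

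**Figure D2:**
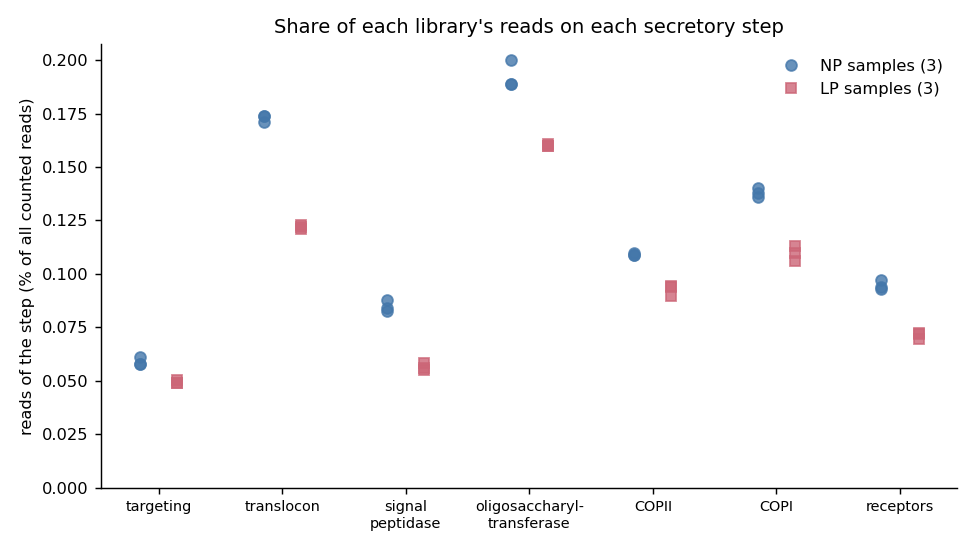
Reads on the measured genes of each step as a percentage of all reads counted in a library (vertical axis), with 1 point per sample for 3 NP (circles) and 3 LP samples (squares). In all 7 steps the LP squares lie below the NP circles, for example 0.123% or less against 0.171% or more for the translocon. The shares are raw sums over a step, and of the 9 COPII genes 1 fell and 2 rose.

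Markers of other cells also moved between the groups. Of 25 skeletal muscle markers, 20 had a row, 17 of the 19 tested rose, and together they held between 0.00305% and 0.009% of the reads in NP and between 0.632% and 0.663% in LP. Myh1 and Mylpf, a myosin heavy chain and light chain of fast muscle, were at 0 in all NP samples. Acta1, a muscle actin, did not pass the test, with 0, 166 and 144 reads in NP against 0, 186 and 185 in LP (adjusted p = 0.967 by edgeR). Pygm, with 0, 18 and 7 reads in NP against 0, 15 and 19 in LP, did not pass it either. Acta1 and Pygm were thus at 0 in replicate 1 of both groups. The 10 follicular markers held between 23.8% and 25.4% in NP and between 23.6% and 25% in LP, nearly all of it reads of Tg. Of the 10 markers 2 fell and 3 rose, with a median log2 ratio of -0.045. By edgeR Slc5a5 (-0.94, adjusted p = 1.75e-06) and Tshr (-0.69, adjusted p = 0.00011) fell, while Nkx2-1 (0.30), Duox2 (0.30) and Duoxa2 (0.47) rose. Tg itself had a log2 ratio of 0.058 (SE 0.031, adjusted p = 0.228 by edgeR, or 2.06e-19 with the replicate block), and -0.010 when libraries were scaled by their totals alone. With the block 3 follicular markers fell and 4 rose. The 4 C cell markers went from between 1.44% and 1.53% in NP to between 1.21% and 1.28% in LP. Of these Calca (calcitonin) fell by 20%, and Scg2, a granin, rose by 0.41 on the log2 scale (adjusted p = 0.025), a call lost without NP replicate 3 (0.0542) or LP replicate 1. The call of Scg2 was also lost with DESeq2 (adjusted p = 0.431). Chgb (-0.14, adjusted p = 0.177, or 0.00329 with the block) and Chga (-0.014, adjusted p = 0.872, with a value above 0 without NP replicate 1, with TMM without muscle markers or with a mean of at least 50 reads) did not pass the test. The 3 parathyroid markers went from between 0.459% and 0.491% to between 0.363% and 0.391%. Pth, which fell by 18.9%, held nearly all of these reads, while Gcm2 (0.17, adjusted p = 0.164) and Casr (0.12, adjusted p = 0.34) had values above 0 and did not pass the test. Of the 3 endothelial markers tested 2 fell, and the list held between 0.0326% and 0.0338% of the reads in NP and between 0.0258% and 0.027% in LP. The 3 airway secretory markers tested all rose, to between 0.00215% and 0.00223% of the reads from between 0.000291% and 0.000642%. Of 4 adipocyte markers 1 fell, Ucp1, with 12, 9 and 9 reads in NP against 2, 4 and 4 in LP, near the floor. Adipoq (0.18), Plin1 (0.27) and Cidec (0.0030) had values above 0 and did not pass the test. The read shares of the adipocyte list overlapped between the groups. Of the 5 fibroblast markers tested by edgeR 0 were called, but with the block Col1a1 (0.40, adjusted p = 1.57e-08) and Col3a1 (0.20, 4.37e-07) rose and Dcn (-0.20, 0.00046) fell. NP replicate 1 had 850 reads of Col1a1 against 2724 and 2478 in NP replicates 2 and 3, and without it the values of Col1a1 and Col3a1 were -0.17 and -0.081. The list held 0.119%, 0.215% and 0.21% of the reads in NP against 0.138%, 0.231% and 0.222% in LP, higher in LP for each replicate number. The 3 B and plasma cell genes with a row were too low to test. With TMM computed without the muscle markers and the genes past the study's criteria, 25 of the secretory genes fell and 2 rose. With scaling to the summed follicular markers, added after the data were seen and in effect scaling to Tg, 26 fell and 1 rose. Leaving the muscle markers out of TMM changes the scaling and does not take muscle RNA out of the counts. The part of the skeletal muscle, airway, adipocyte, C cell, parathyroid, endothelial and fibroblast shares in changes of the secretory genes was not tested. This holds for falls and rises, for the other pathway genes and for the read shares of paralogs given below.

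Of the 5 genes of targeting to the ER membrane 1 fell, and their median log2 ratio was -0.18. Srp72, a protein of the SRP core, was the gene that fell. It had 160, 138 and 145 reads in NP replicates 1, 2 and 3 against 121, 125 and 137 in the corresponding LP replicates, which gave 52.0 ± 7.5 CPM (SD, n = 2) against 38.8 ± 0.055 CPM, a log2 ratio of -0.38 (SE 0.11, adjusted p = 0.0306). The call was lost without LP replicate 2 (adjusted p = 0.0645) or replicate 1 of either group, and with DESeq2 (0.339). Srp68, which binds Srp72, had 320, 418 and 424 reads in NP against 356, 407 and 416 in LP, for a log2 ratio of -0.11 (SE 0.092, adjusted p = 0.454), and its groups overlapped in CPM. Srp9 and Srp14, the pair that pauses elongation, had values of -0.32 and -0.16, and the SRP receptor subunit Srpr had -0.18 (adjusted p = 0.186, or 0.00131 with the replicate block).

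At the translocon 8 of 9 genes fell, by 19% to 36.5%, and the median log2 ratio was -0.41. In each of the 9 genes every LP sample lay below every NP sample. Ssr3, a subunit of the translocon-associated protein (TRAP) complex, fell most, with 343, 425 and 424 reads in NP against 257, 273 and 303 in LP. Its level went from 131 ± 12 CPM to 83.9 ± 1.9 CPM, a log2 ratio of -0.65 (SE 0.080, adjusted p = 0.000113). The channel genes had values close to it. Sec61a1, the pore-forming subunit, had 1173, 1183 and 1310 reads in NP against 855, 979 and 952 in LP, a log2 ratio of -0.57 (SE 0.068, adjusted p = 9.18e-05). Sec61b, a small subunit of the same channel, had 291, 322 and 290 reads in NP against 199, 250 and 211 in LP, a log2 ratio of -0.62 (SE 0.074, adjusted p = 8.87e-05). Sec63, which recruits the chaperone BiP to the channel, fell by 25.2%, Tram1, a membrane protein next to the channel, by 22.6%, and the TRAP subunits Ssr2 and Ssr1 by 24.6% and 19.4%. The call of Ssr1 was lost with DESeq2. Sec62, the partner of Sec63, fell by 19% (adjusted p = 0.0286). Sec62 lost its call with DESeq2 and without NP replicate 1, NP replicate 2 (0.051) or LP replicate 2 (0.112). The fourth TRAP subunit, Ssr4, had 340, 405 and 379 reads in NP against 350, 375 and 361 in LP, a log2 ratio of -0.19 that did not pass the test (adjusted p = 0.0919, or 0.00962 with the block). The 4 TRAP subunits thus had values from -0.65 to -0.19, and whether these differed from each other was not tested.

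All 5 genes of the signal peptidase fell, by 19.1% to 38.5%, with a median log2 ratio of -0.50 and no overlap between the groups in any of them. Spcs3, a subunit needed for cleavage, had the lowest value of the 45 genes. It had 399, 382 and 366 reads in NP against 253, 260 and 286 in LP, or 133 ± 14 CPM against 81.02 ± 0.306 CPM, a log2 ratio of -0.70 (SE 0.083, adjusted p = 8.46e-05). Spcs2 fell by 32.8% (adjusted p = 0.000123). The alternative catalytic subunits, Sec11a and Sec11c, both fell. Sec11a had 337, 416 and 393 reads in NP against 279, 313 and 324 in LP (log2 ratio -0.47, SE 0.077, adjusted p = 0.001), and its groups did not overlap. Sec11c had 451, 428 and 448 in NP against 347, 335 and 374 in LP (-0.50, SE 0.080, adjusted p = 0.000921). Sec11c took 54.6% ± 3.7 of the reads of the pair in NP and 54% ± 2 in LP (SD, n = 2), and the shares overlapped. Spcs1, an accessory subunit, changed least, with 257, 250 and 258 reads in NP against 205, 260 and 236 in LP (log2 ratio -0.31, adjusted p = 0.0226). Its call was lost with DESeq2 and without LP replicate 3 (0.0588) or replicate 1 of either group.

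In the oligosaccharyltransferase, 2 of the 4 genes measured fell. Dad1, a small membrane subunit, had 522, 541 and 488 reads in NP against 361, 421 and 401 in LP, or 178 ± 12 CPM against 119 ± 4.0 CPM, a log2 ratio of -0.58 (SE 0.078, adjusted p = 0.000244). The large subunits had values nearer to 0. Rpn1 (ribophorin I) fell by 14.4%, with 2300, 2285 and 2327 reads in NP against 2119, 2279 and 2271 in LP (adjusted p = 0.0222), a call lost without replicate 1 of either group. Rpn2 (ribophorin II) had 1418, 1489 and 1447 reads in NP against 1450, 1488 and 1542 in LP, a log2 ratio of -0.12 (SE 0.065, adjusted p = 0.248, or 0.00728 with the block), and at 477 CPM or more in NP and 466 CPM or less in LP its groups did not overlap. Ddost had -0.16 (adjusted p = 0.133, or 0.000798 with the block). Of the other subunits of the enzyme in the list of partner genes, 4 fell and Ost4 did not pass the test (-0.16, adjusted p = 0.15). Ostc, which ties the enzyme to the translocon, fell by 40.2% with 344, 309 and 361 reads in NP against 215, 238 and 230 in LP (adjusted p = 2.95e-05). Tusc3, an oxidoreductase subunit, fell by 24.2%. Tusc3 lost its call with DESeq2 (adjusted p = 0.218) and without LP replicate 2 (0.0627) or replicate 1 of either group. Its paralog Magt1 fell by 34.8% (adjusted p = 0.00021) and Krtcap2 by 26.7% (adjusted p = 0.0021, or 0.086 with DESeq2). Magt1, Krtcap2 and Ost4 are named here after their values were seen.

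The COPII coat was the 1 step with called genes on both sides of 0. Of its 9 genes 1 fell, 2 rose and 6 did not pass the test, and the median log2 ratio was -0.13. The inner coat protein Sec23, which with Sec24 binds the GTPase Sar1 on the ER membrane, has the paralogs Sec23a and Sec23b, and these moved apart. Sec23b had 410, 387 and 435 reads in NP against 289, 276 and 309 in LP, or 141 ± 7.9 CPM against 89.7 ± 4.4 CPM, a log2 ratio of -0.65 (SE 0.076, adjusted p = 7.79e-05). Sec23a had 49, 38 and 70 reads in NP against 68, 96 and 86 in LP, or 17.7 ± 0.19 CPM against 24.4 ± 3.6 CPM, a log2 ratio of 0.50 (SE 0.16, adjusted p = 0.0426). The NP samples of Sec23a were widely spread, at 17.5, 12.5 and 23.1 CPM, and overlapped with the LP samples at 21.8, 28.4 and 25.5 CPM. Its call was lost without NP replicate 2 (log2 ratio 0.30, adjusted p = 0.283), LP replicate 2 (0.096) or LP replicate 3 (0.0632), with DESeq2 (0.518), with library totals alone (0.0725) and with scaling to follicular markers (0.142).

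The share of Sec23b in the reads of the pair was 89.3%, 91.1% and 86.1% in NP against 81%, 74.2% and 78.2% in LP, without overlap. In the 2 against 2 samples an exact permutation test of the log2 ratio, two-sided, cannot go below p = 0.333, which was its value, and with the 6 samples as deposited it gave the smallest possible p = 0.1, where replicates 2 and 3 are not independent. Adjusted over the 9 pairs of paralogs compared, these were 0.599 and 0.3.

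Sar1, the GTPase that starts coat assembly, also has a pair of paralogs. Sar1b had 142, 162 and 136 reads in NP against 212, 216 and 214 in LP, and every LP sample lay above every NP sample. Its level went from 49.97 ± 1.19 CPM to 65.9 ± 3.1 CPM, a log2 ratio of 0.39 (SE 0.084, adjusted p = 0.0056, or 0.202 with DESeq2), and it kept its call without any 1 sample. Sar1a had 648, 699 and 730 reads in NP against 651, 701 and 648 in LP, a log2 ratio of -0.20 (SE 0.071, adjusted p = 0.0775, or 0.000803 with the block). Sar1b took 18%, 18.8% and 15.7% of the reads of the pair in NP and 24.6%, 23.6% and 24.8% in LP, again without overlap and with the same smallest exact permutation p-values of 0.333 and 0.1 (adjusted over the 9 pairs 0.599 and 0.3).

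**Figure D3:**
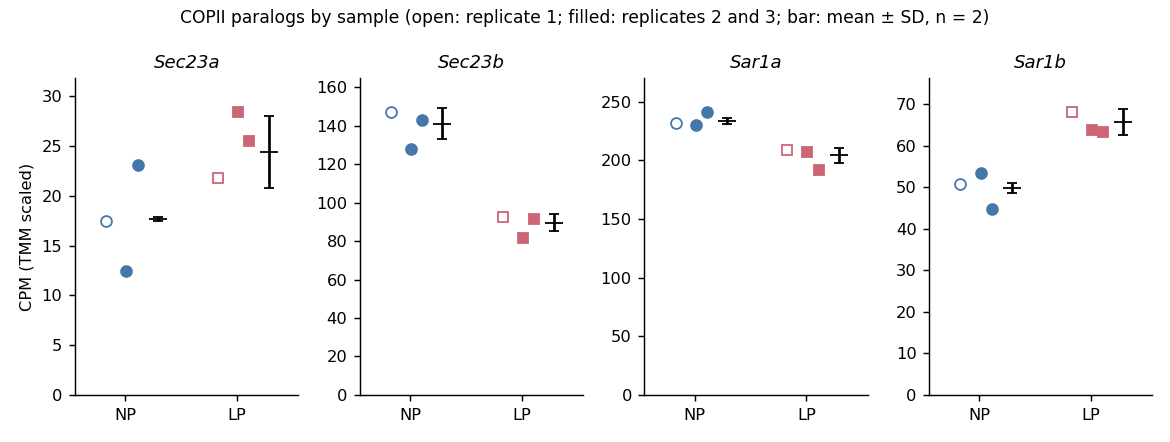
TMM-scaled CPM (vertical axis, from 0) of the COPII paralogs Sec23a, Sec23b, Sar1a and Sar1b in each NP (circles) and LP (squares) sample, with the mean ± SD of n = 2 as a bar (replicate 1 open, replicates 2 and 3 filled and counted as 1 sample). Sec23b lies at 128 CPM or more in NP and at 92.8 CPM or less in LP, and Sar1b at 53.4 CPM or less in NP and at 63.4 CPM or more in LP, while the Sec23a groups overlap.

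The Sec24 paralogs, which select cargo, did not pass the test. Sec24a had 87, 104 and 107 reads in NP against 99, 134 and 121 in LP (log2 ratio 0.087, adjusted p = 0.681). Sec24c had 621, 709 and 717 in NP against 695, 740 and 691 in LP (-0.076, adjusted p = 0.534). Sec24d had 243, 274 and 256 in NP against 241, 263 and 245 in LP (-0.20, adjusted p = 0.0769, or 0.0317 with the block). Of their shares, that of Sec24d against Sec24c also did not overlap (26.3% to 28.1% in NP, 25.7% to 26.2% in LP). Sec13 and Sec31a, the outer cage, had values of -0.13 and -0.20 (adjusted p = 0.35 and 0.0823, the latter 0.000933 with the block). Among the exit site partners, Sec31b, a paralog of Sec31a, rose from 8, 9 and 10 reads to 45, 45 and 69 reads, a log2 ratio of 2.38 (SE 0.26, adjusted p = 4.36e-05). Whether the muscle RNA of the LP samples had a part in the rises of Sec23a, Sar1b and Sec31b was not tested.

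RefSeq promoter windows of the assembly GRCr8, from 250 bases before to 50 bases after the annotated start, were matched by symbol for 37 of the 45 genes, all but Srpr, Sec61a1, Tram1, Sec24c, Sec24d, Sar1a, Kdelr2 and Surf4. The windows were read because the ER stress element (ERSE), its variant ERSE-II and the core TGACGT of sites for CREB and ATF factors are textbook elements of secretory pathway genes. Both strands were searched. ERSE and ERSE-II end in the same CCACG, which shares ACG with TGACGT. ERSE and ERSE-II were each found in 0 of the 37 windows, and in 0.0659% and 0.051% of the 33365 distinct windows of all genes, so with these letters a match was rare anywhere. TGACGT was found in 8 of the 37 windows (21.6%) and in 7.94% of all windows. The latter were not limited to genes measured here nor matched for base composition, so the 2 shares do not show an enrichment. By step it was in 4 of 7 COPI, 2 of 6 COPII, 1 of 7 translocon and 1 of 4 receptor windows and in 0 of the 13 others. The matches of the Sec23 paralogs are shown because both windows hold the motif and the genes moved in opposite directions. Capitals mark TGACGT, read here on the strand of the gene, from base -91 to -86 of Sec23a and from base -43 to -38 of Sec23b.
Sec23a, chr6:82440960-82441025, minus strand: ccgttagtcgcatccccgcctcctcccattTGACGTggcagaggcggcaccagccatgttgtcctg
Sec23b, chr3:152392610-152392675, plus strand: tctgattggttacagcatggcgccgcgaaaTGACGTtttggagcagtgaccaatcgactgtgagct

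Sar1b and Sec24a start head to head on chromosome 10, the 1 pair of the 37 windows that overlap. There are 61 bases between their annotated starts. This stretch precedes both a gene that rose (Sar1b, 0.39) and a gene that did not pass the test (Sec24a, 0.087). It is shown on the plus strand, the strand of Sar1b, with the start base of each gene in capitals, that of Sec24a first.
Sec24a to Sar1b, chr10:36525303-36525365, plus strand: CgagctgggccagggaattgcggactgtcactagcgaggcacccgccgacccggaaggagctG

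In the COPI coat 5 of 7 genes fell, by 15.6% to 27.7%, and the median log2 ratio was -0.31. Copb2 (β' subunit) had 306, 333 and 314 reads in NP against 237, 280 and 255 in LP, or 108 ± 2.0 CPM against 77.6 ± 2.2 CPM, a log2 ratio of -0.47 (SE 0.070, adjusted p = 0.000536). Copb1 (β) fell by 24.2%, Arcn1 (δ) by 22.9% and Copz1 (ζ) by 19.4%, and all LP samples of these genes lay below all NP samples. Copb1 and Copz1 lost their calls with DESeq2, and Copz1 also without NP replicate 1. The weakest of the called genes was Copa (α), which fell by 15.6% (adjusted p = 0.0411). It lost its call without NP replicate 2 (0.0513), LP replicate 3 (0.055) or replicate 1 of either group. The call was also lost with the DESeq2 test, with DESeq2 size factors (0.0515) or with TMM without the muscle markers (0.056). Cope (ε) had 438, 455 and 424 reads in NP against 452, 469 and 452 in LP, a log2 ratio of -0.098 (SE 0.076, adjusted p = 0.424), and Copg1 (γ1) had -0.11 (adjusted p = 0.35, or 0.0363 with the block). Coat subunits that assemble as 1 heptamer thus differed in their values, and whether they differed from each other was not tested.

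The 4 COPI windows with TGACGT, in capitals, were those of Copa, Copb1, Copb2 and Cope, which include the lowest and the highest log2 ratio of the coat. The match lay on the opposite strand (ACGTCA) in Copb1 and Copb2, and in Cope both strands matched in the palindrome TGACGTCA.
Copa, chr13:87078868-87078917, plus strand: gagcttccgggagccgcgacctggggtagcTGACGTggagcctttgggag
Copb1, chr1:177872809-177872874, minus strand: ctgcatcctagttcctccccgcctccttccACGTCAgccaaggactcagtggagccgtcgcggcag
Copb2, chr8:108040649-108040714, plus strand: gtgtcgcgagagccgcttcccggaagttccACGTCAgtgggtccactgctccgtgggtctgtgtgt
Cope, chr16:19159223-19159287, minus strand: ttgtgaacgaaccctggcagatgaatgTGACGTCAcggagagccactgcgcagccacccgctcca

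Of the 6 cargo and retrieval receptors 4 fell, by 18.4% to 23.7%, with a median log2 ratio of -0.31. Surf4, a cargo receptor of the ER, had 1305, 1368 and 1353 reads in NP against 1107, 1195 and 1161 in LP, or 458 ± 13 CPM against 352 ± 4.8 CPM, a fall of 23.1% (adjusted p = 0.00153). The KDEL receptors, which return escaped ER chaperones, had similar values. Kdelr1 had 506, 475 and 513 reads in NP against 447, 446 and 440 in LP (log2 ratio -0.32, SE 0.082, adjusted p = 0.0157). Kdelr2 had 317, 340 and 361 in NP against 276, 297 and 288 in LP (-0.39, SE 0.068, adjusted p = 0.00158). Kdelr3 had 112, 89 and 118 in NP against 102, 101 and 96 in LP (-0.25, SE 0.12, adjusted p = 0.181), and its groups overlapped. The read shares of each pair of KDEL receptors overlapped between NP and LP. With DESeq2 the adjusted p-values of Kdelr1 and Kdelr2 were 0.0816 and 0.0612. Lman1 (ERGIC-53), a lectin that carries glycoproteins out of the ER, fell by 18.4% (adjusted p = 0.0229). Lman1 lost its call with DESeq2 and without NP replicate 2 (0.071), LP replicate 3 (0.0686) or replicate 1 of either group. Its partner Mcfd2 had 217, 260 and 229 reads in NP against 220, 233 and 225 in LP (log2 ratio -0.20, adjusted p = 0.0765, or 0.0315 with the block).

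The counts by step were set beside 129 other genes of the pathway in 8 lists, 123 of which had a row and were tested. Of these 37 fell, 4 rose and 82 did not pass the test, with a median log2 ratio of -0.19. As shares, 30.1% of these genes fell against 57.8% of the 45 genes described above. Of all genes 8.36% fell, and 12% of those with a mean of at least 50 reads. The other lists held genes with as few as 7 reads in a sample, against 38 among the 45 genes. A call is harder to reach at low counts, and how far this bears on the difference between the shares was not tested. ER-Golgi tethers and SNAREs had 8 falls and 1 rise among 19 genes, with Scfd1, which assists ER-Golgi fusion, at -0.65 (SE 0.10, adjusted p = 0.000631). The rise was that of Bnip1, an ER SNARE, at 0.55 (adjusted p = 0.0186, or 0.0698 with scaling to follicular markers). The p24 and lectin cargo receptors had 5 falls among 13 genes. The p24 protein Tmed2 had 1383, 1402 and 1417 reads in NP against 1052, 1056 and 1146 in LP, with a value of -0.53 (SE 0.068, adjusted p = 0.000159). Partners of translocation and glycosylation had 6 falls among 26 genes, COPI and Arf partners 3 among 9 with the GTPase Arf4 at -0.44, and COPII and exit site partners 4 falls and 2 rises among 13 with Tfg at -0.38. The call of Tfg was lost with DESeq2 (adjusted p = 0.208). Post-Golgi coats had 5 falls among 17 genes and a median of -0.17. Insertion of tail-anchored and multi-pass proteins, a partly SRP-independent way into the ER membrane, had 2 falls and 1 rise among 15 genes and a median of -0.029.

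The other genes that the naming rule picks from these lists had weak calls. The exit site gene Sec16b (0.77, adjusted p = 0.0495) lost its call without replicate 2 or 3 of either group (0.0551 to 0.116), or without LP replicate 1. Bag6 (0.23, 0.0497), a chaperone of tail-anchored proteins, lost it without NP replicate 3 (0.0696), LP replicate 3 (0.0691) or replicate 1 of either group. Wrb (-0.37, 0.0291), the membrane receptor of these proteins, lost its call without either replicate 2 (0.0797 for NP and 0.0732 for LP) or either replicate 1. Among clathrin adaptors Ap3s1 (-0.68, 0.0423) lost its call without NP replicate 2 (0.0541), NP replicate 3 (0.0994), LP replicate 1 or LP replicate 2 (0.133). Ap3d1 (-0.23, 0.0361) lost it without LP replicate 3 (0.0528) or replicate 1 of either group. Tmed10 (-0.24, 0.0388) lost its call without NP replicate 3 (0.0686) or replicate 1 of either group, and Arfgap2 (-0.26, 0.0311) without LP replicate 1. Sec16b, Tmed10 and Arfgap2 also lost their calls with DESeq2 (adjusted p = 0.55, 0.104 and 0.174).

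**Figure D4:**
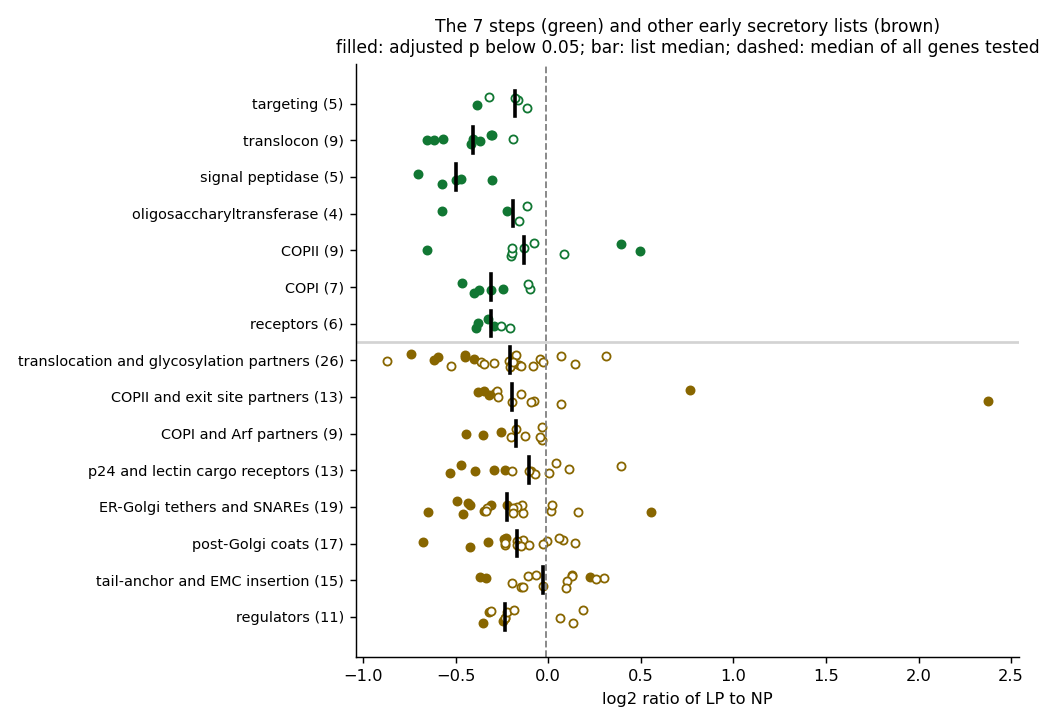
Log2 ratio of LP to NP (horizontal axis) for each tested gene of the 7 steps (upper rows) and of 8 other lists of the early secretory pathway and its regulators (lower rows), with the number of genes in brackets, filled points for adjusted p below 0.05 and a bar at the list median. The medians of the signal peptidase (-0.50) and the translocon (-0.41) lie farthest left, and that of tail-anchor and EMC insertion (-0.029) nearest to the dashed median of all genes tested (-0.011).

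Among 11 regulators of the unfolded protein response and secretory capacity 4 fell and 0 rose by edgeR (0 also at an unadjusted p-value below 0.05), and by DESeq2 1 fell and 0 rose. Atf6b, a transcription factor of the ER membrane, fell by 21.7% (adjusted p = 0.00388). Creb3l2, of the same kind, fell by 14.8% (0.0385), a call lost without NP replicate 2 (0.081), LP replicate 2 (0.0507) or replicate 1 of either group. Xbp1, Atf6 and Atf4 are named here for their roles, after their values were seen. Xbp1, a transcription factor that induces secretory pathway genes, had 820, 821 and 885 reads in NP against 763, 720 and 743 in LP, a log2 ratio of -0.32 (SE 0.079, adjusted p = 0.0145), and its groups did not overlap. Gene counts do not show the spliced form of its mRNA. Atf6 (-0.24, adjusted p = 0.0679, or 0.0137 with the block) and Atf4 (-0.22, adjusted p = 0.0702, or 0.000219 with the block) did not pass the test.

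Under all 17 alternative settings 15 of the 28 calls held: 6 at the translocon (Sec61a1, Sec61b, Sec63, Ssr2, Ssr3 and Tram1), 4 at the signal peptidase (Spcs2, Spcs3, Sec11a and Sec11c), 2 in the COPI coat (Copb2 and Arcn1), and Dad1, Sec23b and Surf4. DESeq2 kept 6 calls at the translocon, 4 at the signal peptidase, 2 each in the oligosaccharyltransferase and the COPI coat, 1 in the COPII coat, 1 of a receptor and 0 in targeting.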

How the data were processed

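The deposited values were read counts per gene and sample, without normalization, which the authors made by mapping polyA RNA-seq reads (TruSeq libraries, Illumina HiSeq) to rn5 with TopHat 1.4.0 and counting them on Ensembl release 81 genes with HTSeq-count. The strand setting is not given in the sources used here. Every table had 15388 genes, each with a transcript identifier and a symbol, and paralogs or overlapping genes could share or lose reads in the counting. Gene lengths were not used, so levels are not compared between genes.

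LP was compared with NP by the quasi-likelihood test of edgeR 4.0.16 in R 4.3.3, with TMM scaling, the filterByExpr filter (12326 genes kept) and Benjamini-Hochberg adjustment over all genes tested. A gene was called, and is said to have risen or fallen, at an adjusted p-value below 0.05. SE was the absolute log2 ratio over the square root of F. Replicates 2 and 3 of each group were summed after the chi-square test. Means ± SD are of TMM-scaled CPM of replicate 1 and of the mean of replicates 2 and 3. The steps were checked on simulated counts. These held independent samples with the same variation for every gene and no effect of the replicate number. They therefore do not show how the test behaves on the spread of these samples. The genes, lists and tests were chosen with earlier results of these data known. In each step the highest and the lowest log2 ratio and the sets of paralogs are given in full, and from each other list the highest and the lowest called gene.

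Deviations of samples with the same replicate number correlated (0.493, 0.223 and 0.192), so a fit with that number as block was made as an alternative, although LP replicate 2 and NP replicate 3 correlated about as well (0.216). The coefficient of biological variation was 0.0781 without and 0.0163 with the block. Other alternatives were the 6 samples as deposited, other filters, other scalings, DESeq2 1.42.0, leaving out each sample and an adjusted p-value below 0.01. Promoter windows were those of RefSeq on GRCr8, while the counts rest on rn5, and no coordinates were converted.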

Additional observations from a re-analysis of the deposited data

How the results depend on the processing

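With the replicate block 35 of the 45 genes fell and 2 rose in 4 samples and 36 fell in the 6 samples as deposited. Over all genes it raised the falls from 1030 to 1666 and 1727. DESeq2 left 16 falls and 0 rises among the 45 genes, 13 and 1 among the other pathway genes, and 336 and 833 (of 1511 rises) over all genes. At an adjusted p-value below 0.01, 18 of the 45 genes fell and 1 rose, 18 other pathway genes fell and 1 rose, and 494 of all genes fell. With a mean of at least 50 reads, 2 of the 4 rises among the other pathway genes were left. Scaling by library totals alone, chosen after the data were seen, left 1 rise among the 45 genes and 2 among the others, raised the falls over all genes to 1647 and moved the median of the 45 genes from -0.306 to -0.372. Scaling to follicular markers, also chosen later, left 1 and 1 and moved it to -0.363. Leaving out 1 sample gave 20 (without NP replicate 1) to 26 falls and 1 to 2 rises among the 45 genes, a median of -0.327 to -0.244 (the latter without NP replicate 1), 26 to 35 falls and 2 to 4 rises among the others, and 702 to 1019 falls and 1227 to 1534 rises over all genes. Tg changed sign with library totals alone (-0.0104), Col1a1 (-0.168) and Col3a1 (-0.0814) without NP replicate 1, and Chga with a mean of at least 50 reads (0.00314), TMM without muscle markers (0.00289) or without NP replicate 1 (0.0383). No log2 ratio of the 45 genes changed sign in 765 comparisons with an alternative. The 28 called genes kept their call in 428 and lost it in 48 comparisons, and the others stayed uncalled in 252 and gained a call in 37. The cause of these shifts was not tested. With 2 samples per group, p-values rest on few degrees of freedom. The counts without a replicate 1 rest on 1 sample in that group.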
